A study of Mus musculus with 12 samples.

Results

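The genes described here are the enzymes of the AKR1C family and the steroid 5-alpha-reductases on Affymetrix mouse transcriptome arrays of ovaries and gonadal fat pads. Members were chosen by name: every Akr1c gene with a number and every Srd5a gene that a transcript cluster with a single gene symbol measured. They were 10 of the 30176 genes with such a cluster, namely Akr1c6, Akr1c12, Akr1c13, Akr1c14, Akr1c18, Akr1c19, Akr1c20, Akr1c21, Srd5a1 and Srd5a3. The rule used names and no measured value, but the family was chosen with earlier results of these data known.

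The DHT-treated mice were C57BL/6J females that carried a capsule with 5 mg dihydrotestosterone (DHT), the most potent natural androgen, for 60 days, and the control mice carried an empty capsule for the same time. All were 25 days old at implantation, and no transgene or deletion is named for either group. Each of the 12 arrays holds 1 tissue, with 3 DHT-treated and 3 control arrays for the ovaries and as many for the gonadal fat pads. Whether a sample came from 1 animal or from a pool is not stated. The replicates are called biological in the labels, which give no link between ovary and fat samples of a mouse.

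The 5-alpha-reductase Srd5a1 turns testosterone into DHT and progesterone into dihydroprogesterone. Srd5a3 belongs to the same family but is known mainly for reducing polyprenol to dolichol, the lipid carrier of N-glycosylation. The AKR1C enzymes move hydrogen onto or off the keto groups of steroids and so switch hormones off or on. In mice Akr1c14 removes active DHT by reducing it to androstanediol, Akr1c18 inactivates progesterone and is known from the regressing corpus luteum, and Akr1c6 and Akr1c21 act on hydroxyl groups at carbon 17.

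The 8 Akr1c genes lie side by side on chromosome 13, within chr13:4048991-4586543 of GRCm38.p6, a stretch of 537.6 kb. Akr1c14 (chr13:4048991-4090560) and Akr1c18 (chr13:4132615-4150646), the genes on which the results turn, are 42.1 kb apart. Srd5a1 lies far from them on the same chromosome (chr13:69573449-69611485) and Srd5a3 on chromosome 5 (chr5:76140273-76155503). A promoter from RefSeq, GRCm38.p6, matched 9 of the 10 genes by symbol. The 250 bases before the start site of the 2 genes that changed are printed first, on the strand of the gene, with capitals for the motif match described next. The window of Akr1c18 is chr13:4150647-4150896 on the minus strand and that of Akr1c14 is chr13:4059341-4059590 on the plus strand, where the table sets a start inside the annotated span of the gene.
Akr1c18: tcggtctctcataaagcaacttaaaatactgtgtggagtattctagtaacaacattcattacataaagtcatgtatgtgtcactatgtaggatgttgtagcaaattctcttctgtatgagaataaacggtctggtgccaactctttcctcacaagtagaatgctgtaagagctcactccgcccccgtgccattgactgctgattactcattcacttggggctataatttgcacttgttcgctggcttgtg
Akr1c14: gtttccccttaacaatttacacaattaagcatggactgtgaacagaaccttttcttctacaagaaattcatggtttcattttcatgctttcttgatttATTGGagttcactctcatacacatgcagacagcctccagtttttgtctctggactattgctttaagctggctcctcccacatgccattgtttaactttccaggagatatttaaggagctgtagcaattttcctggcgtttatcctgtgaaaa

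The windows were searched on both strands for 8 motifs, which are descriptions of letters and not of binding. Of the 32851 promoters in the table, 16.1% held AGAACA, the repeat unit of androgen receptor elements, 14.0% the nuclear receptor repeat AGGTCA and 1.33% its longer form CAAGGTCA, which overlaps it. The motif AGATAA of GATA factors stood in 9.99%, TTCNNNGAA of STAT factors in 7.02%, TTGCNNAA of C/EBP factors in 9.56%, TATAAA in 12.4% and CCAAT in 33.8%. None of the 8 motifs was found in the window of Akr1c18. That of Akr1c14 held CCAAT on the opposite strand, 152 to 148 bases before the start. CCAAT was also found for Akr1c6, Akr1c19 and Srd5a1, TATAAA for Akr1c6, and the STAT and GATA motifs for Akr1c19. None of the 9 matched members held the androgen receptor, nuclear receptor or C/EBP motifs.

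Akr1c12 and Akr1c13 are shown because their windows are nearly the same, with 235 of 250 bases identical (94.0%), against 64.4% for the next closest pairs. AKR1C genes are close paralogs, and whether the probes of 1 gene also read RNA of another was not tested, so the values of all 8 are uncertain to that extent. Capitals mark the bases that differ or have no partner in the alignment, and the windows are chr13:4279400-4279649 on the minus strand for Akr1c12 and chr13:4190937-4191186 on the plus strand for Akr1c13.
Akr1c12: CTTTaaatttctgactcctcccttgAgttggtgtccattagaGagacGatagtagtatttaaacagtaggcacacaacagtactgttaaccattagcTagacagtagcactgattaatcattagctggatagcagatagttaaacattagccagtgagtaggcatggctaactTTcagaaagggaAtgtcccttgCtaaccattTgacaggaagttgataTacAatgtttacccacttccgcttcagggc
Akr1c13: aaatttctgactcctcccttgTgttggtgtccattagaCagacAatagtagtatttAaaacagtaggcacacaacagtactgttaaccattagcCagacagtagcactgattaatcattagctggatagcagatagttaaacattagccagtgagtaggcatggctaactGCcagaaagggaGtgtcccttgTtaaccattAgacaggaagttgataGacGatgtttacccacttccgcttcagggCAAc

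In the deposited table the gonadal fat values of 26501 of 65929 transcript clusters (40.2%) stood beside the name of another cluster, 9 of the 10 members among them and Srd5a3 alone not. Over the 2755 clusters of chromosome 13, fat and ovary means correlated with a Pearson r of -0.0185 as deposited and of 0.943 once the fat values were moved by 58 rows, the same as for clusters that were not displaced. All gonadal fat values below are in the restored order. Fat arrays had medians of 3.30 to 3.52 and ovary arrays of 4.35 to 4.43 on the log2 scale, so levels were compared within a tissue only, and never between genes. In the ovaries, the defining oviduct gene Ovgp1 was far higher in DHT replicates 2 and 3 and in control replicate 2 than on the other 3 arrays. Adipocyte markers were high on all fat arrays, and the luteal enzymes Cyp11a1 and Hsd3b1 lay below the median of every fat array.

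**Figure D1:**
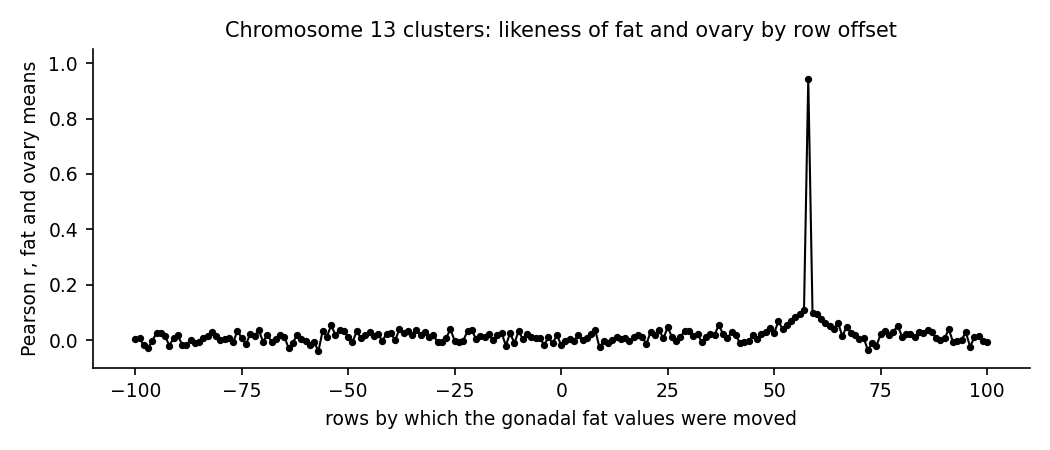
Pearson r across the clusters of chromosome 13 between the mean of the gonadal fat arrays and that of the ovary arrays (vertical axis), against the number of rows by which the fat values were moved (horizontal axis). The r of 0.943 stands alone at 58 rows, while the deposited order, at 0 rows, gave -0.0185.

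A gene was tested in a tissue where it lay above the array median on at least 3 of the 6 arrays, and called at an adjusted p of at most 0.10 in limma over all genes tested. In the ovaries 5 of the 10 members were tested and 1, Akr1c18, was called, lower in DHT-treated mice. Of all 19118 genes tested there 1.26% were called in either direction and 0.717% as lower. In gonadal fat 4 members were tested and 1, Akr1c14, was called, also lower, where 3.87% of 19253 genes were called and 1.22% as lower. The median log2 difference, DHT minus control, over all 10 members was -0.11 in the ovaries and -0.05 in gonadal fat, and over all genes tested it was 0.00 and -0.01. The study had named Akr1c18 in the ovaries and Akr1c14 in gonadal fat from these same samples, so both calls repeat a choice already made on them.

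**Figure D2:**
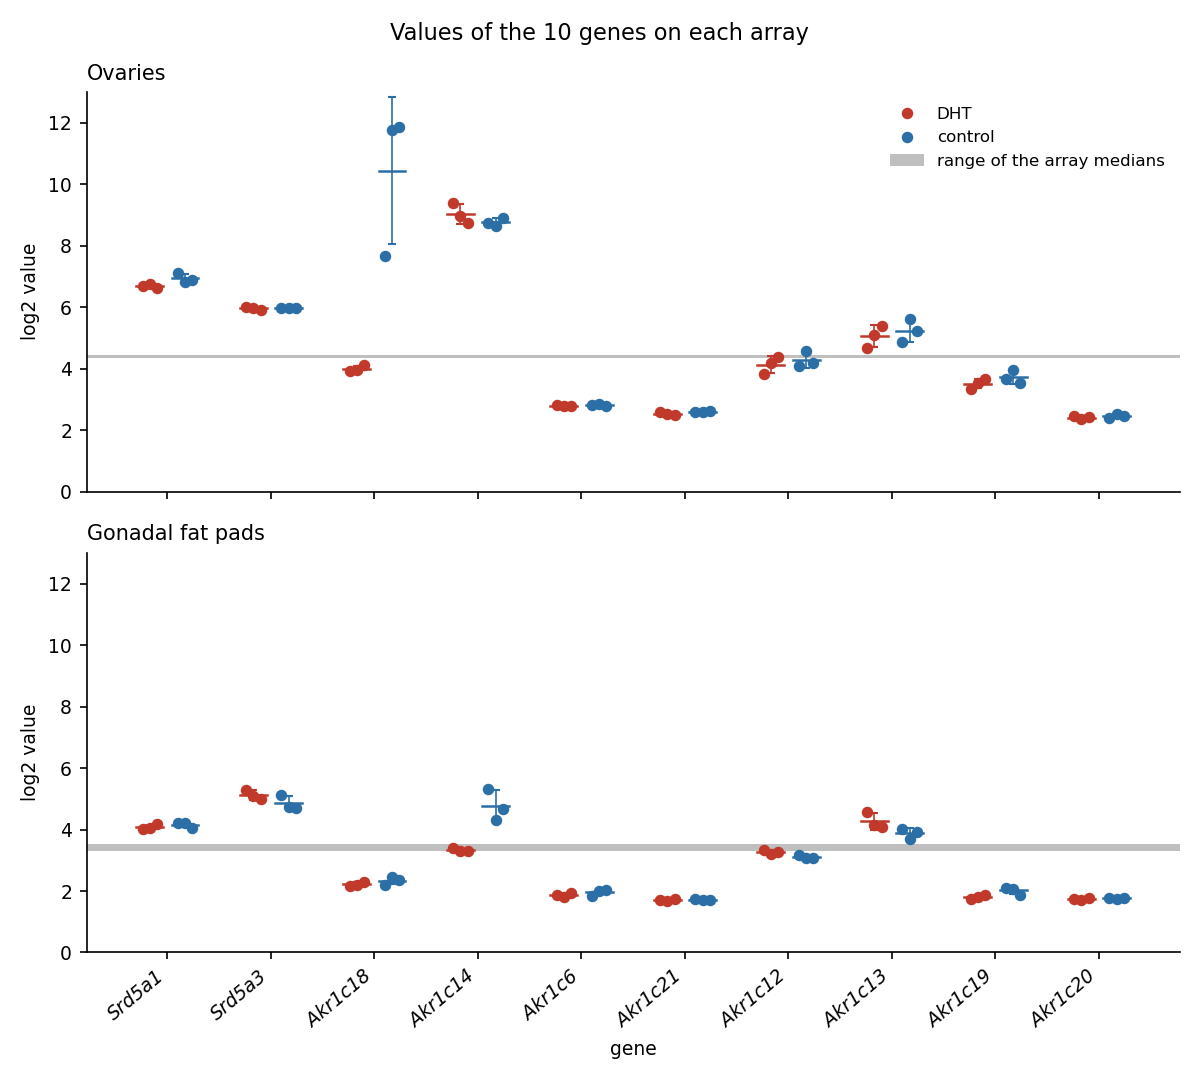
Log2 value of each of the 10 genes (horizontal axis) on each array, for DHT-treated (red) and control (blue) mice, in ovaries (upper panel) and gonadal fat pads (lower panel). Points are arrays, in the order of the replicate numbers, bars are means with SD (n = 3), and the grey band is the range of the array medians. Akr1c18 in the ovaries and Akr1c14 in gonadal fat are the genes with wide gaps between the groups.

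The 5-alpha-reductases that were measured, Srd5a1 and Srd5a3, showed no call in either tissue. Srd5a2 had no cluster with a single gene symbol and so was not measured here. Srd5a1 stood at 6.70, 6.76 and 6.61 in DHT-treated ovaries and at 7.11, 6.83 and 6.88 in control ovaries. The groups did not overlap, which held for 20.0% of all genes tested in the ovaries in either direction and for 13.1% with treated below, and the difference of -0.25 (95% interval -0.46 to -0.04) had an unadjusted p of 0.0274 and an adjusted p of 0.290 in limma. In gonadal fat Srd5a1 stood at 4.03, 4.05 and 4.18 in DHT-treated and at 4.20, 4.21 and 4.07 in control mice. These groups overlapped, and the interval of the difference ran from -0.28 to 0.13.

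Srd5a3, the dolichol enzyme, stood at 6.01, 5.97 and 5.91 in DHT-treated ovaries and at 5.98, 5.97 and 5.98 in control ovaries. The groups overlapped, and the interval of the difference ran from -0.14 to 0.11. In gonadal fat it stood at 5.29, 5.08 and 5.00 in DHT-treated and at 5.14, 4.75 and 4.70 in control mice, groups that overlapped, with a difference of 0.26 and an adjusted p of 0.387 in limma.

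Akr1c14, which removes active DHT, fell in the gonadal fat of DHT-treated mice. Its values were 3.39, 3.29 and 3.31 in DHT-treated fat pads, against 5.31, 4.31 and 4.66 in control fat pads. All 3 DHT-treated fat pads lay below all 3 control fat pads, and only DHT replicate 1 lay above its array median, while the 3 control fat pads alone met the filter, so the gene passed through the group where it was high. The mean was 3.33 ± 0.05 in DHT-treated and 4.76 ± 0.51 in control mice (SD, n = 3 each), a log2 difference of -1.43 (SE 0.22, 95% interval -1.94 to -0.92) with an adjusted p of 0.0235 in limma. With the 2 treated arrays below their medians set to those medians, the treated mean was still 2.57-fold lower. That figure compares means only and leaves out the spread between arrays. Without DHT replicate 2 the difference was -1.41 and the adjusted p rose to 0.105, and in the deposited row order, where another cluster's fat values stood under the name, the difference was -0.35 and the adjusted p 0.363. Whether fewer cells that hold a transcript or less of it per cell underlie a lower value cannot be told apart on arrays of whole tissue, here and below.

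In the ovaries, Akr1c14 did not move the same way. Its values were 9.40, 8.98 and 8.74 in DHT-treated ovaries and 8.73, 8.63 and 8.92 in control ovaries, 4.28 to 5.01 above the array medians on all 6 arrays. The groups overlapped, and the difference of 0.28 (95% interval -0.13 to 0.69) had an adjusted p of 0.577. The fat effect minus the ovary effect was -1.71 (SE 0.31, 95% interval -2.39 to -1.04), with an adjusted p of 0.0141 in limma over the 12 arrays. Of the 18082 genes tested for such a difference 6.14% were called in either direction and 1.51% as lower in fat. Akr1c14 was the single call among the 4 members tested for it, and leaving out each of the 12 arrays in turn gave an adjusted p between 0.00753 and 0.04.

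**Figure D3:**
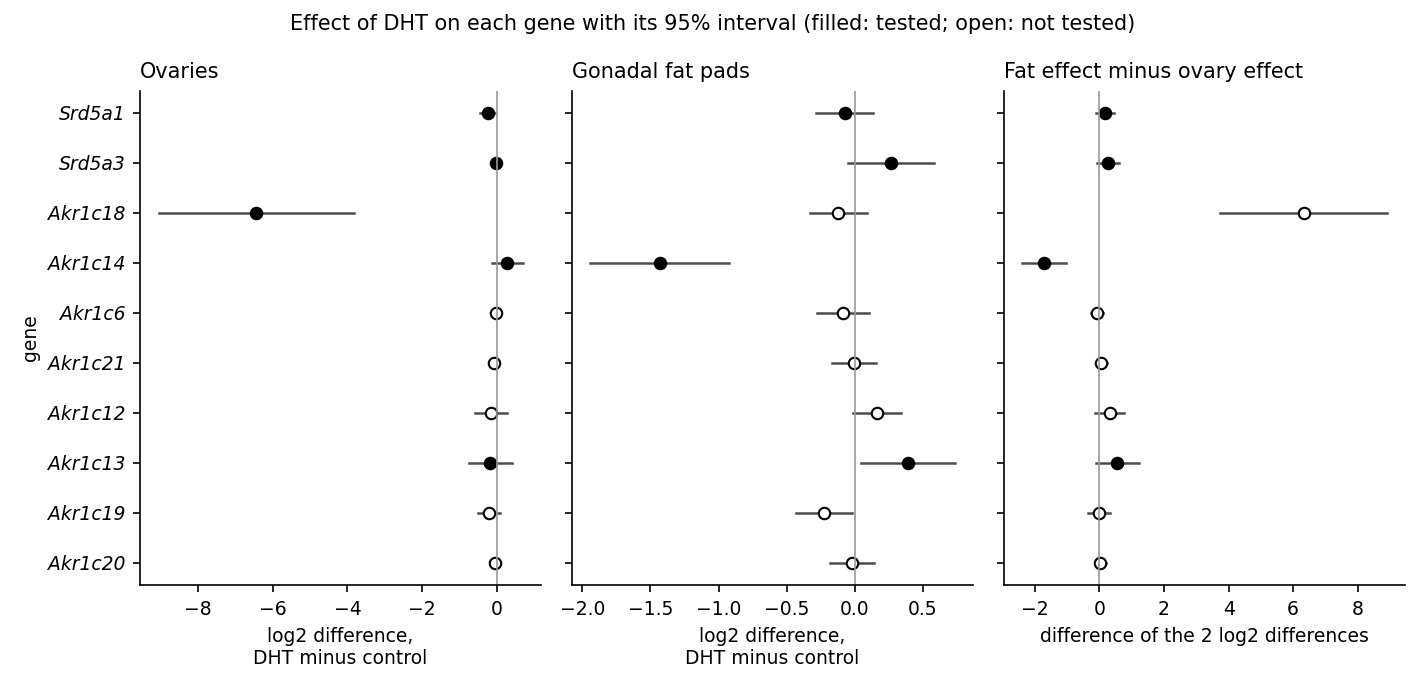
Log2 difference, DHT minus control, of each gene (vertical axis) in ovaries and in gonadal fat pads, and the fat effect minus the ovary effect, each with its 95% interval from limma. The horizontal scales differ between panels, filled points are genes that passed the filter and open points those that did not. The intervals of open points come from the fit without the filter. The intervals of Akr1c18 in the ovaries (-9.05 to -3.83) and of Akr1c14 in gonadal fat (-1.94 to -0.92) lie far from 0.

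Markers of the mesothelium, the cell layer that covers the gonadal fat pad, stood lower on average in the same direction. All 5 of the list had a lower mean in DHT-treated fat, with a summed level of 8.15 to 8.94 in DHT-treated and 8.99 to 9.43 in control fat pads, and 1 of them passed the test. That was Wt1, a transcription factor of mesothelium, at 5.85, 6.22 and 5.84 in DHT-treated and 6.93, 6.53 and 6.63 in control fat pads (adjusted p = 0.0522 in limma). All 4 smooth muscle markers also had a lower mean, with a larger median difference of -1.01 against -0.53 for the mesothelial list, but their groups overlapped (summed level 10.02 to 11.36 in DHT-treated and 10.88 to 12.41 in control fat pads) and none passed the test.

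Of 13 lists of cell type markers, the summed levels in gonadal fat lay apart between the groups for 5. Those of the mesothelium, of the theca and stroma list (7.11 to 7.31 in DHT-treated and 7.32 to 7.47 in control fat pads) and of the corpus luteum list (8.24 to 8.32 in DHT-treated and 8.58 to 8.68 in control fat pads) were lower in DHT-treated mice. The last 2 lists do not stand for luteal or theca cells in fat, where Cyp17a1, Cyp11a1 and Hsd3b1 lay below every array median. There the luteal sum came mainly from Scarb1 (mean 7.39 in DHT-treated and 7.48 in control fat pads) and Parm1 (6.23 and 7.05). The theca and stroma sum came mainly from Ptch1 (6.41 and 6.48) and Tcf21 (5.09 and 5.48). Those of adipocytes (13.67 to 13.81 in DHT-treated and 13.32 to 13.50 in control fat pads) and of red blood cells, where 1 gene was measured, were higher. Of the 8 adipocyte markers 7 had a higher mean in DHT-treated fat, 6 of them without overlap, and 2 passed the test. Of all genes tested in gonadal fat, 14.5% were higher without overlap. The part of these markers in the lower Akr1c14 was not tested.

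The genes most like Akr1c14 over the 6 gonadal fat arrays, by Pearson r and given as a description, were Slc30a1 (0.997), Mir1983 (0.996), Esr1 (0.994), Mir1198 (0.993) and Myo5c (0.992). Esr1, the estrogen receptor alpha, stood at 6.09, 5.92 and 6.00 in DHT-treated and 6.94, 6.49 and 6.60 in control fat pads, in the same order of the control replicates as Akr1c14. Esr1 and Myo5c, a myosin motor, passed the test as lower (adjusted p = 0.0457 and 0.0461), and the other 3 did not.

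Akr1c18, which inactivates progesterone, fell in the ovaries of DHT-treated mice by the widest margin of the 10 genes. Its values were 3.92, 3.96 and 4.10 in DHT-treated ovaries, against 7.68, 11.76 and 11.87 in control ovaries. All 3 DHT-treated ovaries lay below the array median, and control replicate 1 lay far under the other 2 controls though still well above the treated ovaries. The mean was 3.99 ± 0.10 in DHT-treated and 10.44 ± 2.39 in control ovaries (SD, n = 3 each), a log2 difference of -6.44 (SE 1.09, 95% interval -9.05 to -3.83) with an adjusted p of 0.0792 in limma. With the treated ovaries set to their array medians, the treated mean was still 65.2-fold lower. That figure compares means only and leaves out the wide spread of the controls. It passed the filter through the control ovaries alone and so had to differ to be tested.

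The call changed with single arrays. Without control replicate 1 the log2 difference was -7.82 and the adjusted p 1.11e-05. Without any single one of the other 5 arrays, DHT replicates 1, 2 and 3 and control replicates 2 and 3, it was -6.50 to -5.73 with an adjusted p of 0.196 to 0.256. In gonadal fat Akr1c18 lay below the median of every array, at 2.16, 2.19 and 2.29 in DHT-treated and 2.20, 2.44 and 2.36 in control mice.

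Markers of the corpus luteum, the progesterone-making body that forms after ovulation, stood lower in the same ovaries. All 7 of the list that were measured had lower values in every DHT-treated ovary than in any control ovary. Of all genes tested in the ovaries, 13.1% did so. Of the 7 markers 3 passed the test as lower, Star, Cyp11a1 and Ptgfr. Star, Cyp11a1, Hsd3b1 and Inhba of the list are not particular to luteal cells. Ptgfr, the receptor for the prostaglandin that makes the corpus luteum regress, stood at 4.43, 5.23 and 5.69 in DHT-treated and 7.65, 9.23 and 10.25 in control ovaries (adjusted p = 0.0792). Star, which carries cholesterol into mitochondria, stood at 7.37, 8.47 and 7.74 in DHT-treated and 9.91, 10.49 and 10.90 in control ovaries (adjusted p = 0.0472). Control replicate 1, the ovary with the lowest Akr1c18 among controls, was also the lowest control for Star, Ptgfr, Cyp11a1, Hsd3b1, Scarb1 and Inhba. Parm1 went the other way, at 7.39 in control replicate 1 and 7.32 in control replicate 3. The summed level of the list was 12.06 to 12.45 in DHT-treated and 13.07 to 13.73 in control ovaries, and its part in the lower Akr1c18 was not tested.

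Adipocyte markers also stood lower in these ovaries. Of the 8 markers 7 had a lower mean in DHT-treated ovaries, 4 of them without overlap, and 1 passed the test, the hormone-sensitive lipase Lipe, at 6.68, 6.60 and 6.57 in DHT-treated and 7.01, 6.88 and 7.01 in control ovaries (adjusted p = 0.0902 in limma). The summed level of that list was 9.16 to 9.73 in DHT-treated and 9.91 to 10.53 in control ovaries. Of the 13 marker lists, lymphocytes were the only other one whose summed levels did not overlap in the ovaries, with 7.24 to 7.36 in DHT-treated and 7.16 to 7.2 in control mice. Their part in the lower Akr1c18 was not tested either.

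**Figure D4:**
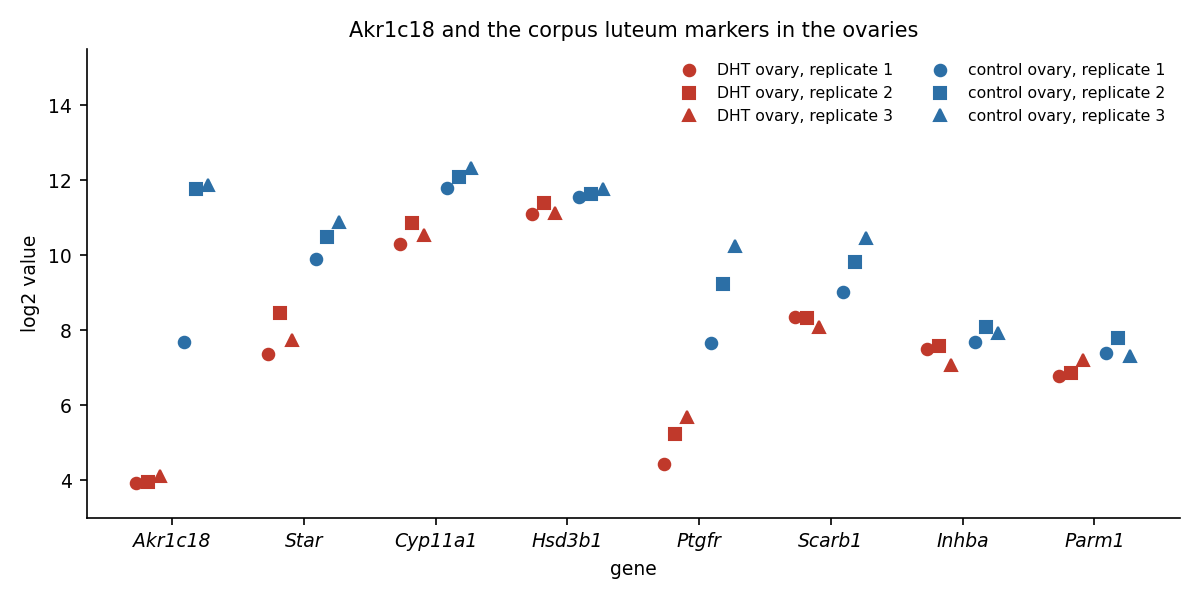
Log2 values of Akr1c18 and of the 7 measured corpus luteum markers (horizontal axis) in the ovaries of DHT-treated (red) and control (blue) mice, with 1 symbol per replicate number. Control replicate 1 (blue circle) stands at 7.68 for Akr1c18, 7.65 for Ptgfr and 9.91 for Star, the lowest control for each.

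The genes most like Akr1c18 over the 6 ovary arrays were Rgs12, Timm8b, Apeh, Tmx1 and Glyr1, with a Pearson r of 0.996 to 0.997. Rgs12, a regulator of G-protein signalling, stood at 5.80, 5.85 and 5.84 in DHT-treated and 6.16, 6.44 and 6.49 in control ovaries (log2 difference -0.54, adjusted p = 0.0888). It was the only 1 of the 5 that passed the test. In each of the 5, as in Akr1c18, control replicate 1 was the lowest control and lay above all 3 treated ovaries.

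Akr1c6, a hydroxysteroid dehydrogenase of the final step to testosterone and estradiol, lay below the median of every array in both tissues. Its values were 2.83, 2.79 and 2.78 in DHT-treated and 2.81, 2.83 and 2.79 in control ovaries, and 1.81 to 1.94 in DHT-treated and 1.85 to 2.02 in control fat pads. Akr1c21, which acts at carbons 3 and 17 in mice, was likewise below every median, at 2.48 to 2.60 in DHT-treated and 2.59 to 2.63 in control ovaries and at 1.67 to 1.74 in DHT-treated and 1.70 to 1.73 in control fat pads. Akr1c20 lay at 2.36 to 2.45 in DHT-treated and 2.41 to 2.52 in control ovaries and at 1.72 to 1.78 in DHT-treated and 1.75 to 1.78 in control fat pads. None of these 3 genes passed the filter in either tissue. In limma without the filter their adjusted p values ran from 0.738 to 0.979 over the 2 tissues.

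Akr1c19 was also below the median of every array. It stood at 3.35, 3.52 and 3.65 in DHT-treated and 3.65, 3.95 and 3.54 in control ovaries. In gonadal fat it stood at 1.74, 1.79 and 1.86 in DHT-treated and 2.11, 2.08 and 1.88 in control mice. The fat groups did not overlap, but all 6 values lay 1.27 to 1.58 under their array medians, and in the fit without the filter the adjusted p was 0.354.

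Akr1c13 was above the array median throughout and showed no call. Its values were 4.57, 4.16 and 4.07 in DHT-treated fat pads and 4.03, 3.69 and 3.91 in control fat pads. The groups did not overlap, with treated above control, which held for 22.7% of all genes tested in gonadal fat in either direction and for 14.5% with treated above, and the difference of 0.39 (95% interval 0.04 to 0.73) had an unadjusted p of 0.0319 and an adjusted p of 0.253. Akr1c12, of the same gene cluster, stood at 3.33, 3.22 and 3.28 in DHT-treated and 3.18, 3.09 and 3.08 in control fat pads, around and under the array medians, without overlap and without a test. In all, the groups of 4 members did not overlap in gonadal fat (Akr1c12 and Akr1c13 with treated above, Akr1c14 and Akr1c19 with treated below, which 8.23% of genes tested did). In the ovaries those of 2 did not (Akr1c18 and Srd5a1), where 20.0% of genes tested did not overlap in either direction. Akr1c12 and Akr1c19 did not pass the filter, whereas these shares are over genes that did.

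In the ovaries the groups of both genes overlapped. Akr1c13 stood at 4.68, 5.10 and 5.40 in DHT-treated and 4.87, 5.61 and 5.22 in control ovaries, and Akr1c12 at 3.83, 4.18 and 4.38 in DHT-treated and 4.07, 4.57 and 4.20 in control ovaries. Ovgp1 stood at 5.31, 10.27 and 11.32 in DHT-treated and 5.55, 11.55 and 5.14 in control ovaries, so both were highest within each group on its array with the most Ovgp1. The summed level of the 6 measured oviduct markers was 9.07 to 11.97 in DHT-treated and 8.88 to 12.18 in control ovaries. With that level as a covariate in limma, the difference in Akr1c13 was -0.30 (adjusted p = 0.263), against -0.17 without it (adjusted p = 0.86). The difference in Akr1c18 was then -6.71 (adjusted p = 0.0565). That in Akr1c14 was 0.36 (adjusted p = 0.223), against 0.28 without the covariate. This covariate was chosen after the data were seen.

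The other genes of steroid metabolism were taken from 5 lists. Of 8 tested genes of steroid synthesis 2 fell in DHT-treated ovaries and none rose. Star fell by 2.57, and Cyp11a1, the enzyme that makes pregnenolone, stood at 10.32, 10.87 and 10.53 in DHT-treated and 11.80, 12.09 and 12.33 in control ovaries (adjusted p = 0.0371). In gonadal fat 2 of 6 fell. Star fell by 0.53 (adjusted p = 0.0725) and Cyp7b1, a hydroxylase of oxysterols and androgens, by 0.42 (adjusted p = 0.0867). The median log2 difference of the list was -0.31 in the ovaries and -0.02 in gonadal fat.

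Among hydroxysteroid dehydrogenases, the enzymes that work beside the AKR1C family, 2 of 14 tested in gonadal fat rose and none fell. Hsd11b1, which regenerates active glucocorticoid, stood at 6.65, 5.75 and 5.71 in DHT-treated and 4.74, 4.59 and 4.84 in control fat pads (adjusted p = 0.0375). H6pd, which supplies its cofactor, stood at 8.39, 8.36 and 8.47 in DHT-treated and 7.65, 7.69 and 7.65 in control fat pads (adjusted p = 0.00608). None of 15 tested in the ovaries was called, where Hsd3b6 differed by -0.54 (adjusted p = 0.16) and Hsd3b1 by -0.45 (adjusted p = 0.167), and the list had a median of -0.10 there and 0.00 in gonadal fat.

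No relative of the reductases was called, among 9 tested in the ovaries and 8 in gonadal fat, with medians of -0.14 and 0.09. Akr1a1, an aldehyde reductase, differed by -0.14 in the ovaries and 0.30 in gonadal fat (adjusted p = 0.632 and 0.153), Akr1e1 by -0.31 and 0.33 (0.224 and 0.392) and Dhrs11 by -0.19 and 0.27 (0.336 and 0.282). Of the conjugating enzymes, Sult1e1, the estrogen sulfotransferase, rose in gonadal fat, with 7.46, 7.03 and 6.13 in DHT-treated and 1.93, 2.13 and 1.85 in control fat pads (adjusted p = 0.0014). All 3 control fat pads lay below their array medians, so the gene passed the filter through the DHT-treated fat pads alone. With the controls set to those medians, the treated mean was still 10.7-fold higher, a figure that leaves out the spread between arrays. In the ovaries it stood at 6.05, 4.20 and 4.73 in DHT-treated and 2.40, 2.48 and 2.48 in control mice but was above the median on too few arrays to be tested. Sult2b1 was the only other gene of the list tested, with differences of 0.04 in the ovaries and -0.10 in gonadal fat.

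Of 10 receptors and androgen- or glucocorticoid-responsive genes, 1 rose and 1 fell in the ovaries, and 1 rose and 2 fell in gonadal fat. Fkbp5, a chaperone of steroid receptors that androgens and glucocorticoids induce in many cells, stood at 7.83, 7.53 and 7.49 in DHT-treated and 8.65, 8.74 and 9.06 in control ovaries (adjusted p = 0.0309). In gonadal fat the order was turned round, with 7.63, 7.56 and 7.02 in DHT-treated and 6.53, 6.38 and 6.70 in control mice (adjusted p = 0.0482). Zbtb16, a zinc-finger factor, rose in the ovaries by 0.57 (adjusted p = 0.0962) and differed by 0.42 in gonadal fat (adjusted p = 0.203). Esr1 and Pgr, the progesterone receptor, fell in gonadal fat by 0.67 and 0.69 (adjusted p = 0.0457 and 0.0614), while in the ovaries both overlapped between groups and differed by -0.03 and 0.50 (adjusted p = 0.989 and 0.885).

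**Figure D5:**
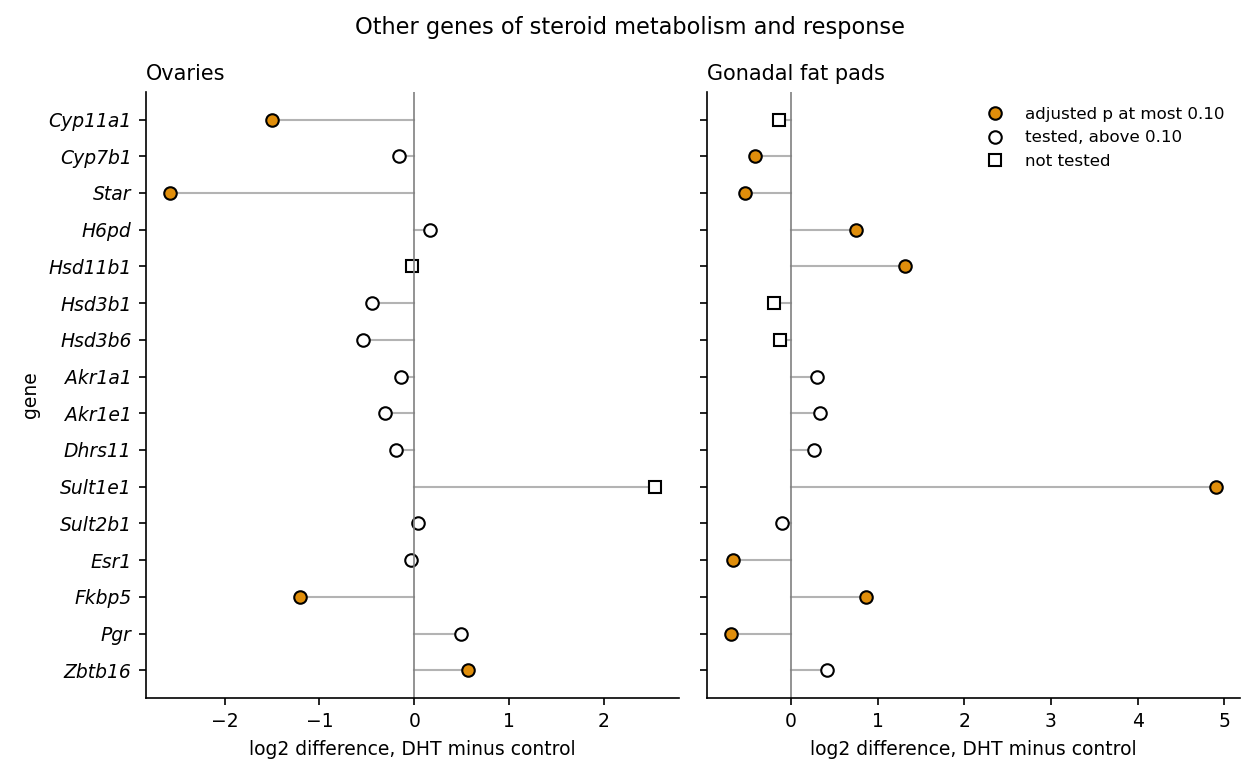
Log2 difference, DHT minus control, of the other steroid genes named by the rule (vertical axis), in ovaries (left) and gonadal fat pads (right). Orange circles passed an adjusted p of 0.10 in limma, open circles did not, and squares were not tested. Star reached -2.57 in the ovaries, and Sult1e1 in gonadal fat is drawn at the measured difference although its control values lay below the array medians.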

How the data were processed

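The authors deposited 1 log2 value per transcript cluster and array, from 0.698 to 13.2, already summarised and normalized. MAS5 is named in the submitters' processing notes, and how arrays were normalized is not given in the sources used. Arrays have no read depth, so their number, 3 per group, limits the precision, and no value was transformed again. A gene was the single-symbol cluster with the highest mean over the 12 arrays (30638 clusters, while 2176 with several symbols and 33115 with none were not used). Fat values were given back their names by a sort of the names that puts "_" before digits. A gene above the array median on at least 3 of 6 arrays was tested with limma 3.58.1 (lmFit, eBayes; R 4.3.3), in place of the SAM of the study's methods, with Benjamini-Hochberg adjustment over all genes tested. The tissue difference came from 1 fit of 12 arrays with 4 group means. The script was tested on simulated data, and Python 3.11.15 with Biopython 1.88 aligned and searched the promoters. The members and gene lists were chosen with earlier results of these data known. Named are all members, the genes of 5 lists of steroid genes that were called in a tissue, with otherwise the 2 of smallest adjusted p per list and tissue, the 5 genes most alike each called member, and markers beside a result.

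With group means taken out, same-numbered ovary and fat arrays correlated weakly over genes, with r = 0.139, 0.156 and 0.192 (DHT-treated) and 0.114, 0.11 and 0.128 (control). The labels do not pair the tissues, and whether a number stands for 1 mouse was not tested. In the tissue difference, the number taken as the animal in a block changed no member's call. Alternatives were quantile normalization, median centring, no and a stricter filter, the mean of a gene's clusters, an intensity trend, the replicate block, stricter criteria, all 12 arrays in 1 fit, the row orders and leaving out each array.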

Additional observations from a re-analysis of the deposited data

Results flagged for a closer look

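The effect of DHT differed between the tissues by the test of the difference itself for the genes that follow, as gonadal fat minus ovaries on the log2 scale in limma. For Akr1c14 it was -1.71, with -1.43 in gonadal fat and 0.28 in the ovaries. Of the 37 genes of the 5 steroid lists tested for such a difference 8 were called, all with a value above 0. A fall in the ovaries gives such a value as well as a rise in gonadal fat. Of all 18082 genes tested for it 6.14% were called, and 75.4% of those called were above 0. Fkbp5 gave 2.07 (adjusted p = 0.00138), with opposite directions in the 2 tissues. Star gave 2.04 (adjusted p = 0.0168), lower in both tissues and more so in the ovaries. H6pd gave 0.58 (adjusted p = 0.0259), Dhrs11 0.46 (adjusted p = 0.0936) and Akr1a1 0.44 (adjusted p = 0.0904). Tspo, a cholesterol-binding protein of mitochondria, gave 0.70 (adjusted p = 0.0447), Klf9 0.44 (adjusted p = 0.0743) and Fdx1, which passes electrons to Cyp11a1, 1.2 (adjusted p = 0.0927), and none of these 3 was called in either tissue alone. In the ovaries and in gonadal fat, Tspo differed by -0.46 and 0.24, Klf9 by -0.15 and 0.29 and Fdx1 by -1.20 and -0.003. Akr1c18 lay below the median of every fat array, and it was not among the genes tested for a difference after the filter.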

How the results depend on the processing

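The direction of the called members held under every alternative run; the cause of the moves below was not tested. In the ovaries 241 genes and 1 member were called, against 87 genes and 0 members at an adjusted p of 0.05, 99 genes at 2-fold and an unadjusted p of 0.01, 439 genes with 12 arrays in 1 fit and, without the filter, 0 members (Akr1c18 adjusted p = 0.109 in limma). Leaving out each array gave 25 to 197 genes and 0 to 1 members. Of the alternatives added after seeing the data, the oviduct covariate gave 438 genes. The arrays with low Ovgp1 gave 0 genes and 0 members in limma, where the lone DHT array is assumed to vary like the controls, and 1535 genes passed an unadjusted threshold of 0.05. On those arrays the log2 difference was -5.86 for Akr1c18 and 0.57 for Akr1c14.

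In gonadal fat 745 genes and 1 member were called, against 456 genes after median centring, 336 at an adjusted p of 0.05, 123 at 2-fold and an unadjusted p of 0.01, 1923 with 12 arrays in 1 fit and 472 among undisplaced clusters. No member (0) was called in the deposited order, among undisplaced clusters (Srd5a3 alone remains) or with the stricter filter, which Akr1c14 does not pass. Leaving out each array gave 139 to 645 genes and 0 to 1 members. For the tissue difference 1110 genes and 1 member were called, against 531 genes at an adjusted p of 0.05, 181 at 2-fold and an unadjusted p of 0.01 and 674 among undisplaced clusters, 2 members without the filter and 0 with the stricter filter, in the deposited order or among undisplaced clusters. Leaving out each array gave 524 to 2037 genes and 1 to 2 members, the added one being Srd5a3 without fat control replicate 1 (0.42, adjusted p = 0.0761).

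The replicate block, for which the numbers within a tissue give no ground (r of 0.411, -0.178 and -0.525 between same-numbered ovaries and 0.268, -0.184 and -0.173 between fat pads), called 3 genes and 0 members in the ovaries (Akr1c18 adjusted p = 0.189) and 1122 genes in gonadal fat, and changed no other member's call. Members tested but not called that changed sign were Akr1c13 in gonadal fat (-0.067 in the deposited order), Srd5a1 in gonadal fat (0.0019 after median centring), Srd5a3 in the ovaries (0.027 on the arrays with low Ovgp1, -0.038 to 0.011 leaving out each array) and Akr1c13 in the ovaries (-0.35 to 0.021 leaving out each array). Of members not tested, the sign also turned in gonadal fat for Akr1c12, Akr1c18 and Akr1c19 in the deposited order and for Akr1c20 and Akr1c21 after quantile normalization or median centring, and for Akr1c21 and, in the ovaries, Akr1c6 on leaving out single arrays. Their tissue differences turned for Akr1c6, Akr1c19, Akr1c20 and Akr1c21. The share of called genes that were higher with DHT was 43.2% in the ovaries and 68.6% in gonadal fat, but 30.5% and 84.2% after median centring. For the tissue difference it was 75.4%, but 62.0% after quantile normalization and 89.5% after median centring, which moved the median of all genes by 0.12.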
